A study of Mus musculus with 16 samples.

Results

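The 138 genes described here encode the subunits of mouse potassium, sodium, calcium and HCN channels. They are the protein-coding genes of the deposited table whose symbols begin with Kcn, Scn (alpha and beta subunits) or Cacn, or are those of the HCN family, and they were picked from 45724 genes in all by symbol alone. They comprise 94 potassium, 14 sodium, 26 calcium and 4 HCN channel genes, divided into 13 families by the role of the subunit.
Neurons were cultured from the brains of newborn (P0) C57BL/6 mice, and 16 total RNA libraries were sequenced. Cultures received NP24 (4 libraries), Tβ10 (4 libraries), Tβ4 (4 libraries) or, as the control (labelled Ctrl), phosphate-buffered saline (DPBS, 4 libraries), which the series' design gives as the comparison. The series attributes these peptides to the subcommissural organ, a small gland of the ventricular wall. All groups share strain, age and source. The labels give neither the dose and duration of the peptides nor whether the libraries of a group came from separate cultures, so p-values measure the spread between these libraries, which may be technical.

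Ion channels set how a neuron rests, fires and releases transmitter. Voltage-gated sodium channels (Scn) carry the upstroke of the action potential, voltage-gated potassium channels (Kv) repolarise the membrane, and inward rectifier (Kcnj) and tandem-pore K2P (Kcnk) channels hold it near rest. Voltage-gated calcium channels (Cacna1) couple depolarisation to transmitter release and to transcription, and HCN channels carry a depolarising current that opens on hyperpolarisation. Pore-forming subunits work with auxiliary subunits that steer them to the surface or shift their gating, and some proteins with channel names serve other receptors, such as the calcium channel gamma-like TARPs that traffic AMPA-type glutamate receptors.

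Each library held 11642242 to 38254320 reads assigned to genes. The channel genes took 0.846 to 1.04% of these reads with NP24, 0.755 to 1.20% with Tβ10, 0.559 to 1.39% with Tβ4 and 0.860 to 1.01% with DPBS. Mitochondrial ribosomal RNA took 5.98 to 8.12% of reads with NP24, 4.76 to 9.53% with Tβ10, 8.25 to 24.3% with Tβ4 and 9.32 to 14.2% with DPBS. The summed level of 8 neuronal markers was 65253 to 70989 normalized counts with NP24, 63202 to 70656 with Tβ10, 49350 to 70302 with Tβ4 and 56666 to 63773 with DPBS, so neuronal RNA was abundant in every library. Markers of fibroblasts (5 genes) summed to 19.7 to 66.1 normalized counts with NP24, 24.7 to 67.7 with Tβ10, 297 to 1323 with Tβ4 and 184 to 317 with DPBS, and Lum was at 0 in all DPBS libraries. Markers of endothelial cells and pericytes (5 genes) summed to 203 to 253 with NP24, 151 to 215 with Tβ10, 613 to 1274 with Tβ4 and 329 to 489 with DPBS, and Cldn5 was at 0 in all NP24 and Tβ10 libraries. In bulk RNA, fewer cells of a type and less RNA per cell cannot be told apart.

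Values are normalized counts, that is, the authors' gene counts divided by 1 size factor per library. The reads appear to have been counted over the whole span of a gene, introns included and without regard to strand. Among 1199 pairs of genes in which the inner gene had over 1000 reads and lay inside another gene's span without sharing an exon, the inner count was at or below the outer count in every library in 1199 pairs. Channel genes with long introns therefore gather intronic reads, and those that overlap other genes carry reads of their neighbours. Of the 138 members, 72 overlapped no other gene, 31 held other genes inside their span, 27 overlapped the end of another gene and 8 lay inside another gene.
The largest such case was Kcnq1, which encodes a voltage-gated potassium channel best known from heart and inner ear. Of its 79434 reads, 97.6% were counted for genes inside its span, and the antisense transcript Kcnq1ot1 alone had 77380. Without these reads Kcnq1 had 91.9 ± 17.8 normalized counts with NP24, 117 ± 29.3 with Tβ10, 132 ± 73.9 with Tβ4 and 123 ± 23.2 with DPBS (mean ± SD, n = 4 each). In all, 12 members had more than 10% of their reads in genes inside their span, among them Cacna2d4 (80.7%), Kcnab3 (46.3%), Kcnab1 (43.6%), Cacng8 (36%) and Cacnb2 (23.4%).

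The control neurons expressed most of the channel repertoire: 45 of the 138 members averaged at least 1000 normalized counts in the DPBS libraries, and 21 averaged under 10. These counts, and the levels and family shares that follow, keep the reads of genes inside a member, which are most of those of Kcnq1. To compare genes, levels were divided by the length of the exons, although part of the reads are intronic. The potassium channel genes with the highest level per kilobase (kb) of exon were Kcnip4, at 3918 ± 639, and Kcnd2, at 2120 ± 175 (normalized counts per kb of exon, mean ± SD, n = 4, as for all levels in the next sentences). Kcnd2 encodes the pore of a somatodendritic A-type channel and Kcnip4 encodes a calcium-binding subunit of the same channels. Kcnq5, a subunit of the M-current channels that limit repetitive firing, followed among the voltage-gated pores at 1235 ± 190.
Other potassium channel families were led by genes of known neuronal channels. Kcnmb2, an inactivating subunit of BK channels, was at 571 ± 99.9, and Kcnma1, the BK pore opened by calcium and voltage, at 485 ± 46.3. Kcnn2, the pore of a small-conductance calcium-activated channel, was at 237 ± 16.
Among channels that act near rest, the mechanically gated K2P genes Kcnk10 and Kcnk2 were at 399 ± 33.8 and 291 ± 28.7. Kcnk2 had 11.9% of its reads in genes inside its span. Kcnj3, a G-protein-gated inward rectifier, was at 369 ± 69.4, above Kcnj4, a classical inward rectifier, at 118 ± 9. The silent subunits, which form no channel of their own, were lower, with Kcnf1 at 92.5 ± 14.1 and Kcns3 at 46.2 ± 17.8.
Sodium channel pores were led by Scn2a (253 ± 10.6) and Scn3a (228 ± 27.9), of which Scn3a is known for its expression in the developing brain. Their gap was within their combined spread, as was that between Scn3a and Scn8a. Scn3b led the beta subunits at 281 ± 14.4.
Calcium channel pores were led by the L-type gene Cacna1c (867 ± 59.4) and the N-type gene Cacna1b (535 ± 51.9), a step beyond their spread. Cacna2d1 (620 ± 58.5) and Cacna2d3 (437 ± 16.8) led the alpha2delta subunits, and Cacnb4 (448 ± 38.4) and Cacnb3 (409 ± 38.5) led the beta subunits without a gap beyond their spread. The TARP genes Cacng4 (966 ± 51.0) and Cacng7 (548 ± 62.2) led their family. Hcn2 (194 ± 17.6) exceeded Hcn3 (166 ± 7.14) by more than the spread, and Hcn3 did not exceed Hcn4 by more than it.

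**Figure D1:**
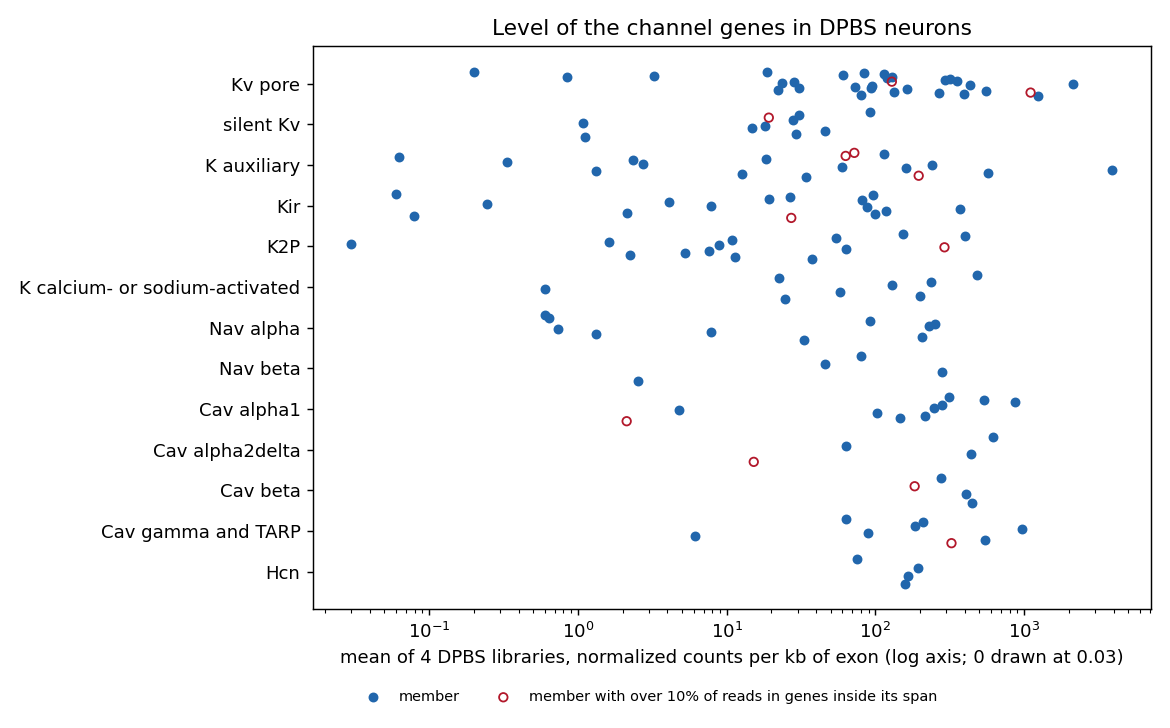
Mean level of each of the 138 channel genes in the 4 DPBS libraries, in normalized counts per kb of exon on a log axis, by family. Points are genes, open points are the 12 genes with over 10% of their reads in genes inside their span, and Kcnip4 is the highest point at 3918.

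The families differed in level and in length. The median member was at 343 normalized counts per kb of exon in DPBS among the Cav beta subunits, 250 among the alpha2delta subunits and 230 among the Cav pores. It was at 117 among the Kv pores, 26.6 among the inward rectifiers and 11.1 among the K2P genes. Members that averaged under 10 normalized counts in DPBS were most frequent among the potassium auxiliary genes (5 of 17) and the Nav pores (4 of 10). Of the genes with a span of at least 150 kb, 11 were Kv pores, 5 Cav pores and 4 each potassium auxiliary and calcium- or sodium-activated genes, while the silent Kv, Nav beta and gamma or TARP families held none. Divided by span, the order changed: Cacnb3 was at 120 ± 11.3 normalized counts per kb of span in DPBS, against 12.5 ± 2.04 for Kcnip4.
By share of all channel reads the Kv pores came first in every group, with 31.1 ± 1.17% in NP24, 31.3 ± 1.85% in Tβ10, 33.9 ± 2.12% in Tβ4 and 33.1 ± 0.322% in DPBS libraries (mean ± SD, n = 4 each). The Cav pores came second, with 21.4 ± 0.828% in NP24, 21.3 ± 1.71% in Tβ10, 19.5 ± 0.910% in Tβ4 and 21.0 ± 0.268% in DPBS libraries.

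NP24 was compared with DPBS to ask which channel genes differed in neurons given this peptide. A single channel gene passed the test: Cacng2, which encodes stargazin, the TARP that traffics AMPA receptors to synapses, was 1.30-fold higher with NP24. No sodium, potassium or HCN channel gene passed. Low values kept 24 members out of the test. Of the 114 tested, 1 was called at an adjusted p under 0.05 (limma), or 0.877%, where 2.63% of all 21774 genes tested were called. DESeq2 called 2, Cacng2 and Kcna6, and 5.41% of all genes.
Cacng2 had 1420, 1515, 1536 and 1484 normalized counts in the NP24 libraries, against 1140, 1094, 1279 and 1088 in the DPBS libraries. Every NP24 library lay above every DPBS library. The log2 difference was 0.37 ± 0.10 (SE; adjusted p = 0.0425, limma). With Tβ10 the libraries had 1183, 1215, 1366 and 1596, which overlapped the DPBS values, and with Tβ4 they had 804, 1325, 1077 and 1032.
The call was lost when the mitochondrial rRNA share was a covariate (0.33, adjusted p = 0.991), when the spread came from all 16 libraries (adjusted p = 0.244), with the replicate number as a block (adjusted p = 0.0582), without a filter on low values (adjusted p = 0.0726), and in 6 of 8 leave-one-out fits, those without NP24 library 1, 2 or 3 or DPBS library 1, 2 or 4 (adjusted p up to 0.135). With the mitochondrial rRNA share as a covariate, 0 of all 21774 genes tested were called. That share was lower in every NP24 than in every DPBS library, so the covariate and the peptide cannot be told apart here. Cacng2 (ENSMUSG00000019146.2, GRCm38 chr15:77991748-78120028, minus strand) overlaps the end of A730060N03Rik, whose 2399 reads may be among its 20933.
The 250 bases before the RefSeq start of Cacng2 (GRCm38.p6, chr15:78119281-78119530, minus strand) and of Cacna1i (chr15:80286988-80287237, plus strand), the calcium channel genes called in any comparison, are shown with those of Kcnd2 (chr6:21215096-21215345, plus strand), the long gene described further on. For each gene the first RefSeq window listed is shown. The Cacng2 window lies inside the span given above for that gene, so it is not upstream of the start annotated there. Capitals mark CG dinucleotides.
Cacng2: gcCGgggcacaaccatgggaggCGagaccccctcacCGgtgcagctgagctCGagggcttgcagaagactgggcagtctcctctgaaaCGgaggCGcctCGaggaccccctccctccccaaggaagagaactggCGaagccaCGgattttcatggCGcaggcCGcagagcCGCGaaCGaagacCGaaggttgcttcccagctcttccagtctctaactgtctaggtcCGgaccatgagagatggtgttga
Cacna1i: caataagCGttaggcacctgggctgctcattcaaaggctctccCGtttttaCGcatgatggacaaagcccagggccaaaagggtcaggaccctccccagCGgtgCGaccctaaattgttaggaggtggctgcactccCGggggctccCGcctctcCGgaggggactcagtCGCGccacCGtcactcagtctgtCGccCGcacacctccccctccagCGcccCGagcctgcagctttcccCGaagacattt
Kcnd2: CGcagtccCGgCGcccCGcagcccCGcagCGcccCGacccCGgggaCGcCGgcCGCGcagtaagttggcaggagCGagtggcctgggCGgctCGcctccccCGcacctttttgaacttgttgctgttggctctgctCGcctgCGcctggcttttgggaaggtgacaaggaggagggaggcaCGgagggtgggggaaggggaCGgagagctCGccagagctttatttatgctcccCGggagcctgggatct
They hold 16, 16 and 22 CG dinucleotides in the order shown, where the median of the 137 windows matched to 101 members was 8 and that of 21262 windows of protein-coding genes was 10. At least 16 were held by 32.1% of the members' windows and 34.1% of those of protein-coding genes, so such counts are common. The letters GGGCGG, on either strand, occur in the Kcnd2 window and in neither of the other windows. They occur in 43.1% of the members' windows and 42.6% of those of protein-coding genes, so the members' windows held them about as often.

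Below the threshold, values with NP24 pointed both ways. Unadjusted p-values under 0.05 were seen for 23 of the 114 members, 16 with positive and 7 with negative differences, which is 20.2% where 17% of all genes tested had one (8.26% positive and 8.78% negative). Groups did not overlap for 8 members (7.02%), against 9.84% of all genes. The median difference of the members was 0.03, and that of all genes was close to 0.
The smallest p-values with positive differences were those of Kcna6, Kcnk3 and Kcnj2. For Kcna6, a Kv pore of axons, the difference was 0.42 ± 0.12 (adjusted p = 0.0561, limma), with 932 to 1135 normalized counts with NP24 against 684 to 937 with DPBS. It overlaps the end of Gm26673, whose 12811 reads may be among its 14679.
Kcnk3, an acid-sensitive K2P leak channel, differed by 0.60 ± 0.18 (adjusted p = 0.0763), and Kcnj2, an inward rectifier, by 0.46 ± 0.14 (adjusted p = 0.0911). The negative differences with the smallest p-values were in long genes: Kcnip4 at -0.45 ± 0.13 (adjusted p = 0.0718), Kcnq5 at -0.34 ± 0.11 (adjusted p = 0.106) and Kcnd2 at -0.32 ± 0.11 (adjusted p = 0.116). Family medians lay between -0.11 in the calcium- or sodium-activated potassium channels and 0.14 in the Nav beta subunits.

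**Figure D2:**
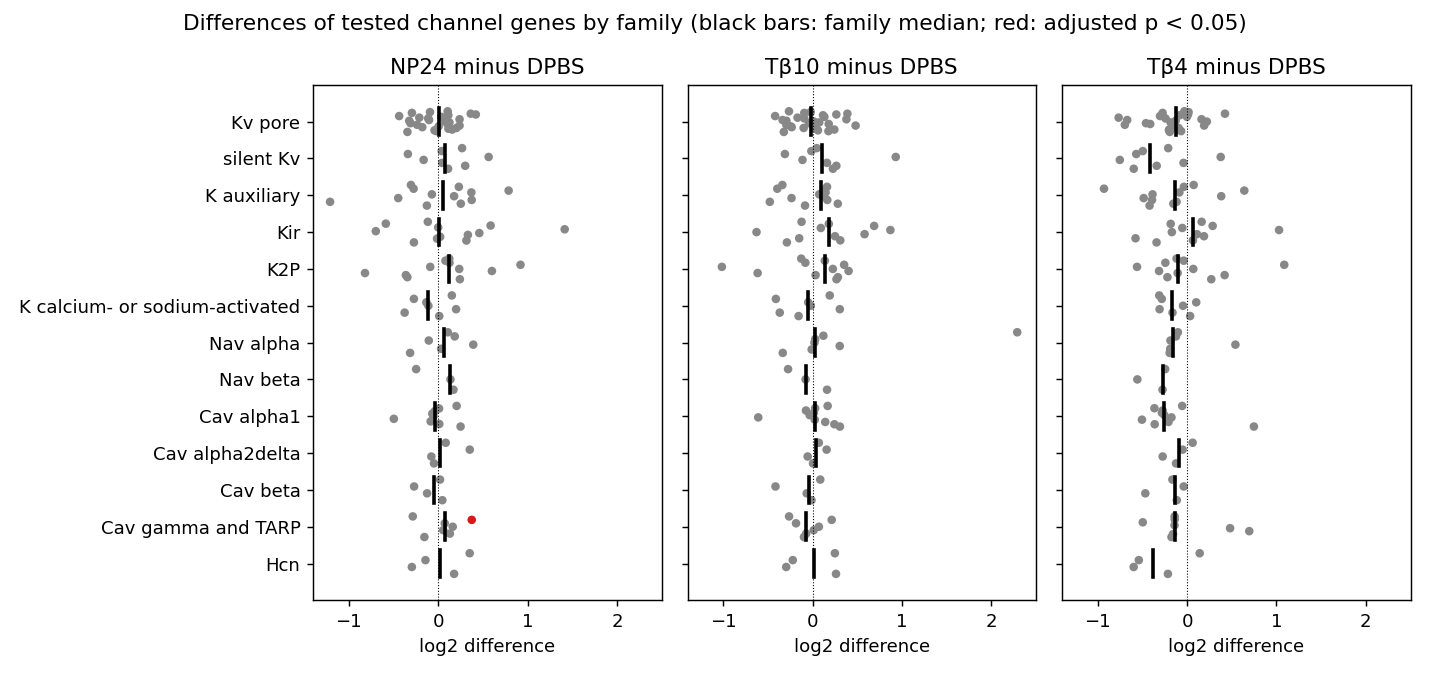
Log2 difference from DPBS of each tested channel gene (points) by family, for NP24, Tβ10 and Tβ4, with the median of each family as a black bar and calls at adjusted p under 0.05 in red. The single red point is Cacng2 with NP24, and with Tβ4 the medians of 12 of the 13 families lie below 0.

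The comparison of Tβ10 with DPBS called none of the channel genes. The test covered 115 members, of which 1 passed the filter on low values through the Tβ10 libraries alone. No call was made among them by limma or edgeR, and limma called 0.633% of all 21960 genes, while 14 of the other 114 members (9 with positive and 5 with negative differences) had an unadjusted p under 0.05, or 12.3% against 11.2% of all genes (4.8% positive and 6.38% negative). DESeq2 called 2 of the members, Kcng3 and Kcnj2, both with positive differences, and 1.93% of all genes.
Kcng3, a silent subunit that joins Kcnb pores, had 195, 168, 174 and 164 normalized counts with Tβ10, against 95.7, 93.6, 125 and 61.7 with DPBS. All Tβ10 libraries were above all DPBS libraries (difference 0.93 ± 0.24, adjusted p = 0.0854, limma). Kcnj2 had 634, 936, 672 and 636 with Tβ10, against 454, 452, 604 and 408 with DPBS, again without overlap (0.58 ± 0.16, adjusted p = 0.113).
Scn10a, a sodium channel of peripheral sensory neurons, was the member that passed the filter through Tβ10 alone, so its groups had to differ and no test is given. It had 12.9, 11.1, 18.9 and 49.5 normalized counts with Tβ10, against 2.36, 0, 8.06 and 8.69 with DPBS, and 117 in Tβ4 library 1.
Negative differences with the smallest p-values were those of Kcnab1 (-0.34 ± 0.13, adjusted p = 0.326), a Kv beta subunit with 43.6% of its reads in genes inside it, Cacnb2 (-0.42 ± 0.16, adjusted p = 0.328) and Hcn3 (-0.30 ± 0.12, adjusted p = 0.350).
Family medians with Tβ10 lay between -0.08 in the Nav beta subunits and 0.18 in the inward rectifiers.

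Tβ4 was the peptide with which most channel genes lay below DPBS, although none passed the test. Of the 115 members tested, 87 had a negative difference and 28 a positive one, with a median of -0.16, whereas the median over all 22205 genes tested was close to 0. None was called by limma, where 0% of all genes were called, and none by edgeR. At an unadjusted p under 0.05 there were 14 members with negative differences, 12.2% of those tested, where 3.02% of all genes had a negative difference at that level, and 4 with positive ones, where 4.04% of all genes had one.
Medians were below 0 in 12 of 13 families, the inward rectifiers (0.07) being the exception. The inward rectifier median turned to -0.13 without Tβ4 library 2, -0.12 with the slope of values on gene length as a covariate, -0.02 under library-size scaling and -0.01 without DPBS library 1, with 13 of 13 medians then below 0. Medians were below 0 in 10 of 13 families without Tβ4 library 3 or with the mitochondrial rRNA share as a covariate. The lowest were in the silent Kv subunits (-0.42, with 7 of 8 tested members below 0) and the HCN genes (-0.38, with 3 of 4 below 0), followed by the Nav beta subunits (-0.27) and the Cav pores (-0.26, with 9 of 10 below 0). These comparisons share the DPBS libraries with those of the other peptides. The summed neuronal markers were lower in the median Tβ4 library (54824) than in the median DPBS library (60508), and astrocyte markers (7 genes) were higher, at 9629 to 11932 in Tβ4 libraries and 7044 to 8593 in DPBS libraries. The part of these cell types in the result was not tested. With the mitochondrial rRNA share as a covariate the median of the members was -0.06, and without Tβ4 library 3 it was -0.08.
Kcnab3, a beta subunit of Kv channels, had the smallest p. It had 90.2, 89.7, 108 and 87.5 normalized counts with Tβ4, against 197, 183, 141 and 203 with DPBS. All Tβ4 libraries were below all DPBS libraries (difference -0.93 ± 0.22, adjusted p = 0.442, limma).
In the authors' deposited table Kcnab3 was the single channel gene called with Tβ4 (log2 fold change -0.94, adjusted p = 0.0090, 1 of 130 members with an adjusted p), and 0.569% of all genes there were called. The authors' deposited tables called no channel gene with NP24 or Tβ10, and 1.47% and 1.12% of all genes in those comparisons. DESeq2 on the recovered reads called Kcnab3 with Tβ4 as well (adjusted p = 0.0239), with 0.338% of all genes.
Kcnab3 holds the antisense gene Kcnab3os, which averaged 38.3 ± 9.53 normalized counts with Tβ4 and 87.8 ± 25.7 with DPBS, and whose 1080 reads make up part of its 2331. With the reads of genes inside it subtracted, Kcnab3 averaged 55.7 ± 4.65 with Tβ4 and 93.0 ± 9.87 with DPBS (difference -0.73, adjusted p = 0.568).
The pacemaker gene Hcn3 had 366, 422, 608 and 457 with Tβ4, against 701, 723, 681 and 653 with DPBS. No library overlapped (-0.60 ± 0.16, adjusted p = 0.458, limma). Kcnh4, an ether-a-go-go type Kv pore, gave -0.70 ± 0.21 (adjusted p = 0.458) with overlap.
The positive differences with the smallest p were those of Kcnip3, a calcium sensor of A-type channels that is also known as a transcriptional repressor (0.38 ± 0.14, adjusted p = 0.606), Cacng5, a TARP (0.48 ± 0.18, adjusted p = 0.620), and Kcnk13, a K2P gene (1.09 ± 0.43, adjusted p = 0.623).

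Peptides were compared directly in 1 fit of all 16 libraries, in which 122 members were tested. NP24 exceeded Tβ4 for 3 channel genes of different families: the leak channel gene Kcnk3, the T-type calcium channel gene Cacna1i and Cacng2. Cacna1i was also lower with Tβ4 than with Tβ10, and no member passed the test between NP24 and Tβ10. T-type channels open at low voltage and support burst firing. Markers of fibroblasts (3 of 3 tested), of microglia and macrophages (4 of 7) and of endothelial cells and pericytes (2 of 4) were called lower with NP24 than with Tβ4. So was 1 of 7 markers of the oligodendrocyte lineage, while no neuronal or astrocyte marker was called. The part of cell makeup in the calls of channel genes was not tested.
For NP24 against Tβ4, 3 of 122 members (2.46%) were called, all higher, where 2.09% of 24232 genes were called and 0.442% were called higher. Without Tβ4 library 2, 18 members were called higher (14.8%, against 5.8% of all genes called and 2.63% called higher).
Kcnk3 (ENSMUSG00000049265.7, GRCm38 chr5:30588170-30625271, plus strand) had 395, 429, 347 and 322 normalized counts with NP24, against 184, 257, 191 and 164 with Tβ4. All NP24 libraries were above all Tβ4 libraries (0.91 ± 0.19, 1.88-fold, adjusted p = 0.0122, limma). DPBS libraries, at 213, 338, 267 and 185, overlapped both. The adjusted p was 0.0592 without Tβ4 library 1, 0.0530 in a fit of these 8 libraries alone and 0.333 with the mitochondrial rRNA share as a covariate (difference 0.64). With that covariate, 7 of all 24232 genes were called for NP24 minus Tβ4 and 10 for Tβ4 minus Tβ10. The share was lower in every NP24 than in every Tβ4 library, so covariate and peptide cannot be told apart in that pair. Kcnk3 overlaps the end of Gm9899, whose 1095 reads may be among its 4825.
Cacna1i (ENSMUSG00000022416.15, GRCm38 chr15:80287238-80398279, plus strand) overlaps no other gene. It had 1520, 1957, 1665 and 1625 normalized counts with NP24, 879, 1229, 1146 and 1189 with Tβ4, and 1649, 1553, 1592 and 1936 with Tβ10. The Tβ4 libraries were below all NP24 and all Tβ10 libraries. The difference was 0.61 ± 0.14 for NP24 minus Tβ4 (adjusted p = 0.0214, limma) and -0.61 ± 0.14 for Tβ4 minus Tβ10 (adjusted p = 0.0289).
DPBS libraries had 1180, 1657, 1645 and 1250 for Cacna1i and overlapped every peptide. With the mitochondrial rRNA share as a covariate its differences were 0.29 (adjusted p = 0.473) and -0.29 (adjusted p = 0.580), and without Tβ4 library 1 they were 0.50 (adjusted p = 0.116) and -0.50 (adjusted p = 0.151). With the length slope as a covariate the adjusted p was 0.0746 for NP24 minus Tβ4 and 0.0588 for Tβ4 minus Tβ10, in fits of 8 libraries it was 0.0782 and 0.121, and without a filter it was 0.0597 for Tβ4 minus Tβ10. Leaving out NP24 library 2 or 3 gave an adjusted p of 0.0751 or 0.0535 for the first, and leaving out Tβ10 library 1, 3 or 4 or Tβ4 library 4 gave 0.0565 to 0.109 for the second.
Cacng2 differed by 0.51 ± 0.13 between NP24 and Tβ4 (adjusted p = 0.0482, limma). The call was lost by edgeR (adjusted p = 0.0620), with a pseudocount of 0.1 (0.0528), without a filter (0.0876), with the replicate number as a block (0.0701), with the length slope as a covariate (0.139), in a fit of these 8 libraries (0.154) and with the mitochondrial rRNA share as a covariate (difference 0.17, adjusted p = 0.681). Of 8 leave-one-out fits, it held only without Tβ4 library 2 (adjusted p = 0.00487), and otherwise the adjusted p was 0.0545 to 0.215.
Of the 122 members, 85 were above 0 for NP24 minus Tβ4 (median 0.19) and 82 below 0 for Tβ4 minus Tβ10 (median -0.20). With the mitochondrial rRNA share as a covariate these were 66 (median 0.06) and 61 (median close to 0), and without Tβ4 library 3 the medians were 0.10 and -0.09. The silent Kv subunits had the largest medians of the 13 families in both, at 0.53 with 9 of 9 tested members above 0 and at -0.55 with 9 of 9 below 0. Among these 9, Kcnv2 stayed under 10 normalized counts in all Tβ4 libraries (0 to 7.32), so the filter set its side. Other members also reached 10 in only 1 group of a pair. In all, 1 did so in NP24 and 3 in Tβ4 for NP24 minus Tβ4. For Tβ4 minus Tβ10, 2 did so in Tβ4 and 1 in Tβ10. The sides of such members are no evidence. For Tβ4 minus Tβ10, 1 member (0.820%) was called, where 1.35% of all genes were called and 0.297% were called lower. Without Tβ4 library 2, 14 members were lower with Tβ4 (11.5%, where 4.38% of all genes were called and 1.88% called lower). For NP24 minus Tβ10 limma called none of the members and 0% of all genes, and 2 members (1.64%) had an unadjusted p under 0.05, against 2.44% of all genes. DESeq2 also called none there.

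**Figure D3:**
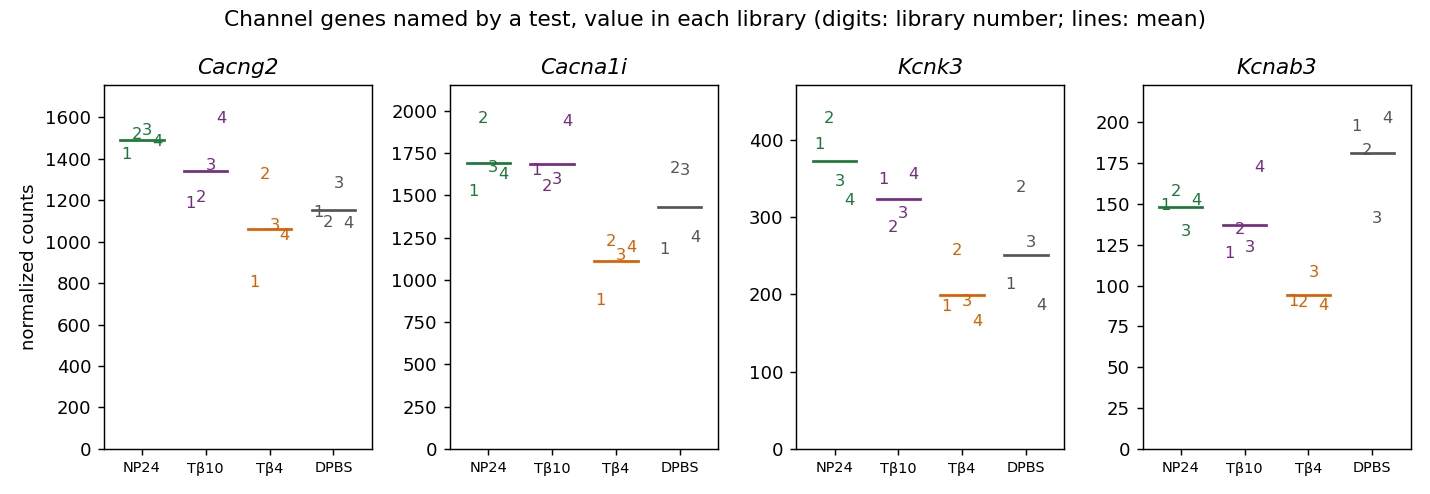
Normalized counts of Cacng2, Cacna1i, Kcnk3 and Kcnab3 in each library (digits give the library number) with the group mean as a line, for NP24, Tβ10, Tβ4 and DPBS. The Tβ4 libraries of Cacna1i, Kcnk3 and Kcnab3 lie below all NP24 libraries, and Cacng2 with NP24 lies above all DPBS libraries.

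The channel genes varied more within the Tβ4 group than within any other. The median SD over the 122 members, on the log2 scale, was 0.28 in NP24, 0.28 in Tβ10, 0.45 in Tβ4 and 0.22 in DPBS libraries. Over all 24232 genes it was 0.32, 0.34, 0.42 and 0.29 in the same order, so the Tβ4 group varied most there too. Tβ4 library 2 stood apart: channel genes took 1.39% of its reads, against 0.559 to 0.782% in the other Tβ4 libraries. This rested on the long genes. For members with a span of at least 150 kb, 35 of 35 were highest in library 2 among the Tβ4 libraries, whereas for those under 30 kb 8 of 46 were. The median deviation of the long members in library 2 from their 16-library median was 0.71 (log2), against 0.57 for all 1474 protein-coding genes of that length, so other long genes were raised there too.
Kcnip4 (span 1135 kb, 5.76% of its reads in genes inside it) had 6577, 30714, 5210 and 9674 normalized counts in the 4 Tβ4 libraries, against 14410, 14736, 16639 and 11064 with DPBS. Library 2 was 4.29 times the mean of the other Tβ4 libraries and above all DPBS libraries, and the others were below all of them. The ratio was 3.84 for Kcnmb2, 3.71 for Kcnq5, 3.30 for Kcnd2 and 3.01 for Kcnh7, an ether-a-go-go related Kv pore.
Among the families, the median ratio of Tβ4 library 2 to the mean of the others was 1.74 for the Cav beta subunits, 1.69 for the Cav pores and 1.66 for the alpha2delta subunits. It was 0.595 for the Nav beta subunits and 0.822 for the silent Kv subunits, whose median spans are 14 and 13.2 kb.
Long members also varied in the other groups. NP24 library 4 was highest of its group for 29 of 35 long members, Tβ10 library 1 for 27 and DPBS library 3 for 24. The median deviations of the long members in these libraries were 0.27, 0.43 and 0.16. Those of all 1474 protein-coding genes of that length were 0.19, 0.18 and 0.05, so other long genes were raised there too.

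**Figure D4:**
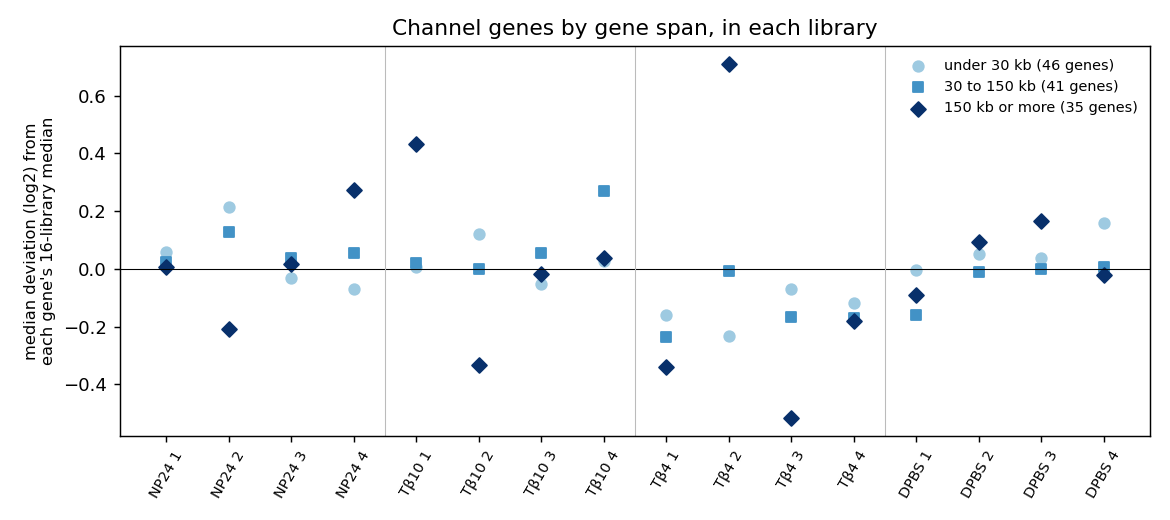
Median log2 deviation of the channel genes from each gene's own 16-library median, in each library, for genes with spans under 30 kb (46), 30 to 150 kb (41) and 150 kb or more (35). Long genes reach 0.71 in Tβ4 library 2 and fall to -0.52 in Tβ4 library 3, where those under 30 kb are at -0.23 and -0.07.

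With Tβ4 library 2 left out, the comparison of Tβ4 with DPBS changed from no call to 17 channel genes lower with Tβ4 and none higher. They were 8 genes for potassium channel pores, 2 for potassium channel auxiliary subunits and 7 for calcium channel subunits. Among 114 members tested this was 14.9%, where 1.63% of all 21665 genes were called and 1.01% were called lower. Of the 17, 16 had a span of at least 150 kb, which is 45.7% of the 35 long members tested, where 8.34% of 1451 protein-coding genes of that length were called lower. The median of the long members was -0.38, with 35 of 35 below 0, and that of all such protein-coding genes -0.12.
The potassium channel pores were Kcnb2, Kcnc2, Kcnd2, Kcnh7, Kcnq3, Kcnq5, Kcnma1 and Kcnt2, and the auxiliary genes were Kcnip4 and Kcnmb2. The calcium channel genes were the pores Cacna1b, Cacna1c, Cacna1d, Cacna1e and Cacna1g with Cacna2d3 and Cacnb4. Differences ranged from -1.14 to -0.45.
Kcnc2, the pore of a fast delayed rectifier of interneurons, led with -1.14 ± 0.11 (adjusted p = 0.000239, limma). It had 1163, 1072 and 1156 normalized counts in Tβ4 libraries 1, 3 and 4, against 2475, 2682, 2825 and 2052 with DPBS, and 3191 in Tβ4 library 2. The 3 retained libraries lay below all DPBS libraries.
Kcnip4 followed with -1.02 ± 0.17 (adjusted p = 0.00616) and Kcnmb2 with -0.88 ± 0.13 (adjusted p = 0.00422), and Kcnma1 was at -0.65 ± 0.11 (adjusted p = 0.00808). The library was left out because of the values seen in these data, so these counts describe what rests on it.
Calls also changed without the library of the NP24 or Tβ10 group in which most long members were highest. Without DPBS library 3, by contrast, 3 members were called with NP24 (2.68%, against 1.99% of all genes). None was then called with Tβ10 or Tβ4, where 0.469% and 0% of all genes were. Without NP24 library 4, 8 members were called with NP24: Kcnb2, Kcnc2, Kcnd2, Kcnip4, Kcnq5 and Kcnt2 lower, and Cacng2 and Kcnj2 higher, where 3.33% of all genes were called. Among the 35 long members 17.1% were then lower, where 5.4% of long protein-coding genes were. Kcnip4 led with -0.61 ± 0.10 (adjusted p = 0.00194).
Without Tβ10 library 1, 4 members were lower with Tβ10, namely Cacnb2, Kcnb2, Kcnd2 and Kcnt2, where 1.17% of all genes were called. They made up 11.4% of the long members, where 2.97% of long protein-coding genes were lower. Kcnd2 gave -0.54 ± 0.11 (adjusted p = 0.0233). NP24 library 4 and Tβ10 library 1 were singled out because long members were highest in them. Lower long members without them follow in part from that choice, so these counts too describe what rests on a library.

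**Figure D5:**
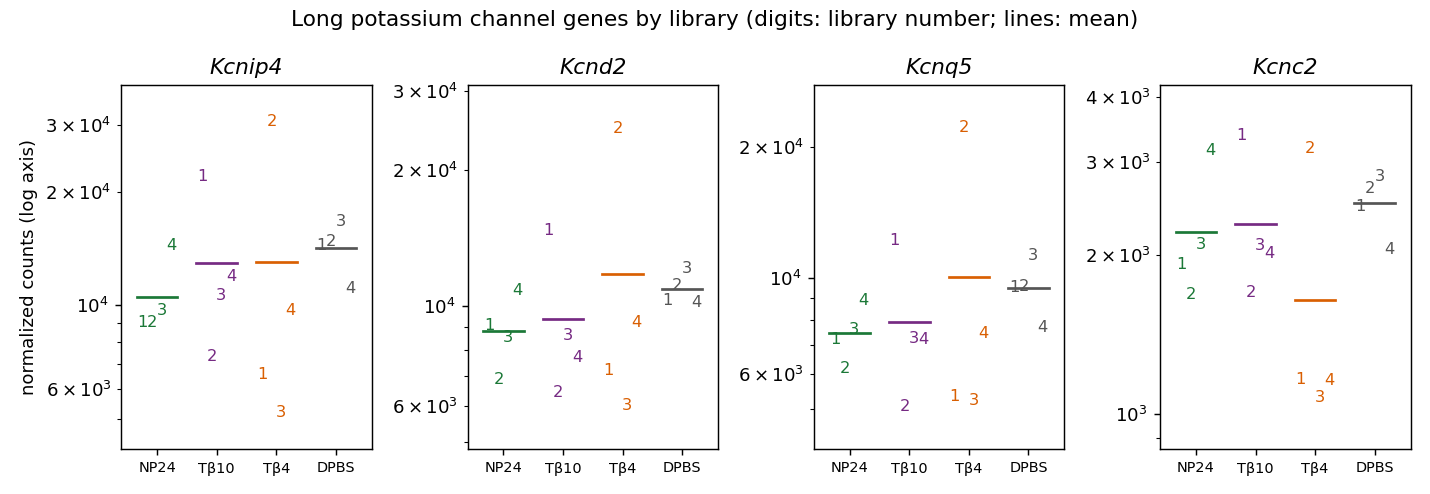
Normalized counts on a log axis of the long potassium channel genes Kcnip4, Kcnd2, Kcnq5 and Kcnc2 in each library (digits give the library number), with the group mean as a line, for NP24, Tβ10, Tβ4 and DPBS. Tβ4 library 2 is the highest of its group in each panel, at 30714 for Kcnip4, and the other Tβ4 libraries lie below the lowest DPBS library in each.

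Genes that work with channels but are not channel subunits gave 1 call against DPBS. Of 39 such genes, among them ankyrins, fibroblast growth factor homologous factors, pumps and chloride cotransporters, 36 were tested with NP24 and 37 with each other peptide. The 1 call among 36 is close to the 2.63% of all genes called with NP24. Fgf14, which binds the tails of sodium channels and sets their gating, fell with NP24 (-0.44 ± 0.12, adjusted p = 0.0458, limma). It had 8012, 5837, 7630 and 9491 normalized counts with NP24, against 10794, 10448, 11319 and 8913 with DPBS, and 23222 in Tβ4 library 2. The NP24 and DPBS libraries overlapped through NP24 library 4 and DPBS library 4. None passed with Tβ10 or Tβ4 by limma, and their medians of -0.03 and -0.06 were near those of all genes.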

How the data were processed

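Total RNA of 16 libraries was prepared with RNeasy Micro columns and the SMARTer Stranded Total RNA-Seq Kit v2, per the labels. The submitters' processing notes name FastQC, HISAT, HISAT2, featureCounts, DESeq2 and build GRCm38, and other settings are not given in the sources used here. The deposited library values are signal: each library's gene counts scaled by the authors with a single size factor. At a tolerance of 0.01 reads, 100% of values were whole reads, which were recovered. The authors' deposited tables also hold log2 fold changes, a Wald score and p-values, used where named.
Tests used limma-trend (limma 3.58.1, R 4.3.3) after adding a pseudocount of 1 and taking log2. A gene entered if 4 or more of the libraries compared reached 10 normalized counts, with Benjamini-Hochberg adjustment over all genes tested and a threshold of 0.05. Each peptide was fitted with DPBS (8 libraries), and peptides were compared in 1 fit of 16. Fold changes on this scale understate low genes. Scripts were tested on simulated data.
The recovered reads were also tested with edgeR 4.0.16 and DESeq2 1.42.0. Further alternatives were other scalings, pseudocounts (0.1 and 10), no filter, a replicate block, 2 covariates, other libraries in the fit, and, chosen after seeing the data, subtraction of the reads of genes inside a gene.
Gene spans came from GENCODE M21, which held 45596 of the 45724 identifiers without regard to version, and promoters from RefSeq. The members and lists were chosen with earlier results of these data known. Named are members called in any comparison, the 3 per direction with the smallest p in each comparison with DPBS, the 2 highest per family in DPBS, and partner genes called against DPBS. Kcnq1, Kcnc2, Kcnmb2, Kcnh7, Kcnv2, the members called without a library and those holding other genes were named after their values were seen. Some results of members that these rules name are not reported here. No sample was left out, except where stated.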

Additional observations from a re-analysis of the deposited data

Results flagged for a closer look

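A library that stood far from the other 3 of its group was found in 15 of 156 groups of named members checked. The limit used gives about 1 in 20 for independent, normally distributed values. Counts of members that share libraries and were named in part for their values need not meet this, so no excess is claimed. All 15 found were high values. Of these, 7 were high values of Tβ4 library 2, in normalized counts: Cacna1b at 6757 (others 3167 to 3692), Cacnb4 at 7492 (others 2677 to 3426), Kcnd2 at 24700 (others 6037 to 9208), Kcnj3 at 4684 (others 1354 to 1890), Kcnma1 at 13435 (others 4749 to 6028), Kcnmb2 at 3707 (others 878 to 1100) and Kcnq5 at 22250 (others 5217 to 7435). All 7 genes span at least 150 kb and share that library, so they are not separate events.
The others were spread over the peptide groups. In NP24 library 4, Kcnip4 was at 14393 (others 8989 to 9687) and Kcnk13 at 104 (others 50.1 to 51.9). Kcnh4 was at 390 in Tβ10 library 1 (others 254 to 276) and Kcnj2 at 936 in Tβ10 library 2 (others 634 to 672).
Among the Tβ4 libraries, Kcnab3 was at 108 in library 3 (others 87.5 to 90.2), Scn3b at 1601 in library 3 (others 1150 to 1204), Kcnip3 at 914 in library 4 (others 689 to 702) and Scn10a at 117 in library 1 (others 2.27 to 9.66).
Differences between peptides that passed limma's test were those of Kcnk3 (0.91), Cacna1i (0.61) and Cacng2 (0.51) for NP24 minus Tβ4, and of Cacna1i (-0.61) for Tβ4 minus Tβ10, on the log2 scale.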

How the results depend on the processing

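The alternatives covered 23 differences of named members, those called or with the smallest p in a comparison. None of these changed its direction. Other differences given for named members, such as those of long genes with Tβ4, were not among them. The balance of all tested members did change with the mitochondrial rRNA share as a covariate. With NP24 against DPBS, 63 were above and 51 below 0 in the main fit, and 50 and 64 with the covariate (median -0.05). With Tβ10 against DPBS, 63 were above and 52 below 0 in the main fit, and 38 and 77 with the covariate (median -0.11). The count of members called with NP24 against DPBS was 2 by DESeq2, with a pseudocount of 10 or with the slope of values on gene length as a covariate, and 3 under library-size scaling. These were 1.75% and 2.63% of the members. In the same order of settings, 5.41%, 3.10%, 3.64% and 3.50% of all genes were called. It was 0 without a filter, with the replicate number as a block, with the mitochondrial rRNA share as a covariate, or with all 16 libraries in the fit. In these fits 0.904%, 2.19%, 0% and 0.495% of all genes were called. DESeq2 called 2 members with Tβ10 (1.74%, against 1.93% of all genes) and 1 with Tβ4 (0.870%, against 0.338% of all genes). For NP24 minus Tβ4 the count was 6 by DESeq2, 12 under library-size scaling and 1 with the length slope. These were 4.92%, 9.84% and 0.820% of the members, against 4.84%, 2.61% and 1.04% of all genes. It was 0 with the mitochondrial rRNA share or in a fit of these 8 libraries, where 0.0289% and 0.494% of all genes were called. For Tβ4 minus Tβ10 it was 5 by DESeq2 (4.10%, against 3.33% of all genes) and 12 under library-size scaling (9.84%, against 2.53%). It was 0 without a filter, with either covariate or in a fit of 8 libraries, where 0.0413% to 0.949% of all genes were called. Under library-size scaling the median of all genes was 0.13 and -0.18 in these pairs. The cause was not tested.
Leaving out 1 library gave 0 to 8 members with NP24, 0 to 4 with Tβ10, 0 to 17 with Tβ4, 0 to 0 for NP24 minus Tβ10, 0 to 18 for NP24 minus Tβ4 and 0 to 14 for Tβ4 minus Tβ10. With NP24 it was 0 without NP24 library 1 or 3 or DPBS library 1, where 1.37%, 0.965% and 0.498% of all genes were called. It was 3 without NP24 library 2 (2.70%, against 3.55% of all genes) or DPBS library 3 (2.68%, against 1.99%). Without DPBS library 4 it was 2 (1.77%, against 1.49%). For NP24 minus Tβ4 it was 0 without Tβ4 library 1, where 0.437% of all genes were called. It was 1 without NP24 library 2 (0.820%, against 1.41% of all genes) or 3 (0.826%, against 1.20%). Without Tβ4 library 3 it was 5 (4.10%, against 2.68%). For Tβ4 minus Tβ10 it was 3 without Tβ4 library 3 (2.46%, against 1.60% of all genes) and 2 without Tβ10 library 2 (1.65%, against 0.957%). It was 0 without any other library but Tβ4 library 2, where 0.366% to 0.926% of all genes were called.
Deviations of same-numbered libraries from their group means correlated at -0.30 to 0.11. These values show no pairing by number, but they cannot tell whether same-numbered libraries were prepared together. With the replicate number as a block, 0, 0, 0, 0, 2 and 1 members were called in the 6 comparisons in the order above. For NP24 minus Tβ4 this was 1.64%, against 1.41% of all genes, and for Tβ4 minus Tβ10 0.820%, against 0.883%. Medians of families moved by less than the spread in 1506 of 1560 alternatives. Of 456 alternatives for named members, 397 kept the side of the threshold, 42 lost the call and 17 gained one. Library depth bears on the low members: 1 read was worth 0.536 to 1.71 normalized counts.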
